A study of Homo sapiens with 4 samples.

Results

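PAX8, WT1, SOX17, EMX2, MECOM, ESR1, MSLN and FOLR1 are 8 genes by which pathologists and developmental biologists recognise tissue of the Müllerian tract and carcinoma of the ovary. They were chosen by name from GENCODE, on the hg19 build, from 20090 protein-coding genes on chromosomes 1 to 22 and X. All 8 genes were found in the annotation. For each gene, promoter peaks were those overlapping 1 kb either side of any annotated transcript start. Distal peaks were those within 50 kb of the gene body that touched no such window of any gene. The peaks come from H3K27ac ChIP-seq of 4 human cancer cell lines, with the aim of finding active regulatory regions that hold predicted non-coding mutations. OVCAR-3 and SKOV-3 come from ovarian cancer, COLO-205 from colon cancer and DU-145 from prostate cancer, and all 4 were grown untreated in culture and gave 1 library each. Each line stands for 1 tumour and has no replicate here, so a difference between lines cannot be told apart from a difference between 2 libraries, and no test was possible.

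The Müllerian ducts give rise to the oviduct, the uterus and the upper vagina, and PAX8, EMX2, SOX17 and WT1 are transcription factors of that epithelium or of the urogenital ridge beside it. PAX8 is a paired-box factor that stays on in secretory cells of the oviduct and in most serous ovarian carcinomas, and SOX17 is an HMG-box factor active in the same cells. WT1 is a zinc finger factor used to diagnose serous carcinoma, EMX2 is a homeobox factor needed for the urogenital ducts, and MECOM is a zinc finger factor often gained in ovarian carcinoma. ESR1 encodes estrogen receptor alpha, a ligand-dependent nuclear receptor. MSLN encodes mesothelin, a surface antigen of mesothelium and ovarian carcinoma, and FOLR1 encodes folate receptor alpha. H3K27ac is an acetylation of histone H3 found at active promoters and enhancers, so its peaks show where chromatin carries the mark and not how much RNA a gene makes.

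The sequences below are summits that carry main values given here, each 200 bp of hg19 centred on a peak summit, to show what DNA the acetylated regions hold. Capitals mark any match to 5 short motifs searched on both strands. These were TGANTCA of AP-1, GCGNGGGCG of EGR factors, CAGGTG of the E-box bound by ZEB factors, AGGTCA of the nuclear receptor half-site and GGGCGG of the GC box. The AP-1, EGR and ZEB motifs belong to factor families that the study considered in the ovarian lines.
PAX8 promoter, OVCAR-3, chr2:114035715-114035914, plus strand: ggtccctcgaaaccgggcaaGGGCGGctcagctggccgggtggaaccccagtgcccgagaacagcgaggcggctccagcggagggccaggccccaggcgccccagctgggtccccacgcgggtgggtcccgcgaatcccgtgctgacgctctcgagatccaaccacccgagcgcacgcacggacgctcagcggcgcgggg
PAX8 upstream element, OVCAR-3, chr2:114040972-114041171, plus strand: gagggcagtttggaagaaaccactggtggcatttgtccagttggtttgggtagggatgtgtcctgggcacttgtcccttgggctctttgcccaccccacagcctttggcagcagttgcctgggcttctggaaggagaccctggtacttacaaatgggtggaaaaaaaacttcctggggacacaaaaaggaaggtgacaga
WT1 promoter, OVCAR-3, chr11:32456666-32456865, plus strand: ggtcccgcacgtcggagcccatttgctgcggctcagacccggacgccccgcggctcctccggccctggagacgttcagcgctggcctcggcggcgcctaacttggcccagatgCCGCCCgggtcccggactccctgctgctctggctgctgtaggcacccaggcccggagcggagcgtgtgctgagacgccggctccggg
EMX2 promoter, OVCAR-3, chr10:119303153-119303352, plus strand: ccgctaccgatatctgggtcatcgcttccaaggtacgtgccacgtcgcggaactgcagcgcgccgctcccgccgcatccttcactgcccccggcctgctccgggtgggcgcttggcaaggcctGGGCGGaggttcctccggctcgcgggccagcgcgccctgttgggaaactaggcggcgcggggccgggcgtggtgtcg
MECOM promoter, OVCAR-3, chr3:169380214-169380413, plus strand: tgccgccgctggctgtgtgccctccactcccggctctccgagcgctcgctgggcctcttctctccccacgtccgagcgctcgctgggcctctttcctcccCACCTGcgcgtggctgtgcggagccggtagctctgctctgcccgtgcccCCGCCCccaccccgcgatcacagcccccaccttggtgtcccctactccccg
ESR1 promoter, SKOV-3, chr6:152129098-152129297, plus strand: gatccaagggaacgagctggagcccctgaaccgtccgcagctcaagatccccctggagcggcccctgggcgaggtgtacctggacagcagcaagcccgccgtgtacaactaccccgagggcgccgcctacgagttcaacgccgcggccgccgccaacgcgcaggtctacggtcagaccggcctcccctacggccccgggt
ESR1 intron element, OVCAR-3, chr6:152222123-152222322, plus strand: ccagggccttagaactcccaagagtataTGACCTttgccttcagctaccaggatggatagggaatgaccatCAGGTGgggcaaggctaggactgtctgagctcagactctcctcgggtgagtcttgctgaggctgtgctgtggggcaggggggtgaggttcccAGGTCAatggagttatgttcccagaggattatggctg
In these windows the PAX8, WT1 and EMX2 promoter summits each hold a GC box, and the MECOM summit a GC box and an E-box. The ESR1 intron element holds 2 nuclear receptor half-sites and 1 E-box, while the ESR1 promoter summit and the PAX8 upstream element hold none of the 5 motifs. Over the summits of all promoter peaks of these genes in OVCAR-3, 7 of 21 windows held a GC box, 6 an E-box, 3 a half-site, 2 an AP-1 site and 0 an EGR site. Of all 24996 OVCAR-3 peaks at annotated starts, 37.2% held a GC box at the summit, 13.2% a half-site, 2.48% an AP-1 site and 5.58% an EGR site, and 5743 held an E-box. Over the 152 distal peaks in OVCAR-3, 41 windows held a half-site and 53 an E-box, where 26.1% and 36.4% of all OVCAR-3 peaks away from starts did. A GC box was in 10.5% of these windows, against 10.6% of all peaks away from starts. A match is a run of letters and not a bound site.

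SKOV-3 has 14001 listed peaks, against 76093 for OVCAR-3, 75468 for DU-145 and 85576 for COLO-205. The pileup of ChIP tags at each summit was worked out from the fold enrichment and −log10 p the authors deposited, and tag totals between 22400000 in SKOV-3 and 36000000 in DU-145 followed from the lowest background. The lowest pileup listed was 11 to 14 tags a library, or 0.351 to 0.491 RPM, where RPM is the summit pileup per 1000000 ChIP tags of the library. Intervals on pileups are exact Poisson 95% intervals and cover counting error only. Libraries also differed in how far peaks stood above background. At 5178 OVCAR-3 peaks with a counterpart in all 4 lines, the median pileup was 3.22 RPM in OVCAR-3, 1.70 in SKOV-3, 1.58 in COLO-205 and 2.06 in DU-145. Every ratio between libraries is therefore also given relative to these common peaks.

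OVCAR-3 carried promoter H3K27ac at 7 of the 8 genes, all but ESR1, where 60.7% of all protein-coding genes had a promoter peak. SKOV-3 carried it at 4 genes, PAX8, SOX17, MECOM and ESR1, against 31.7% of all genes. COLO-205 had promoter peaks at 5 of the genes, PAX8, WT1, EMX2, MECOM and MSLN, against 51.3%. DU-145 had them at 4, PAX8, MECOM, MSLN and FOLR1, against 60.0%. Both ovarian lines were marked at 3 of the genes, PAX8, SOX17 and MECOM, as they were at 30.2% of all genes, while WT1, EMX2, MSLN and FOLR1 were marked in OVCAR-3 and not in SKOV-3, a pattern of 30.4% of all genes. ESR1 went the other way, which 1.45% of genes did. SOX17 was the member marked in both ovarian lines and in neither of the other lines, as were 0.458% of genes, and ESR1 was marked in SKOV-3 alone, as were 0.279%. Together, 2 of the 8 genes were marked in an ovarian line and in neither other line, where 5.38% of all genes were. The share depended on the threshold. When every list was cut to its 14001 peaks of highest −log10 q, the length of the SKOV-3 list, 4 of the genes had this pattern, WT1, SOX17, EMX2 and ESR1, against 10.4% of all genes.

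The summit pileup of the strongest promoter peak, taken by −log10 q, was highest in OVCAR-3 for 7 of the 8 genes, as it was for 44.1% of all protein-coding genes, and the plot of these pileups by gene shows the gap for each. Relative to the common peaks it was highest for 5 genes, PAX8, WT1, SOX17, EMX2 and MECOM, as for 17.6% of all genes, since the order turned at MSLN and FOLR1.

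**Figure D1:**
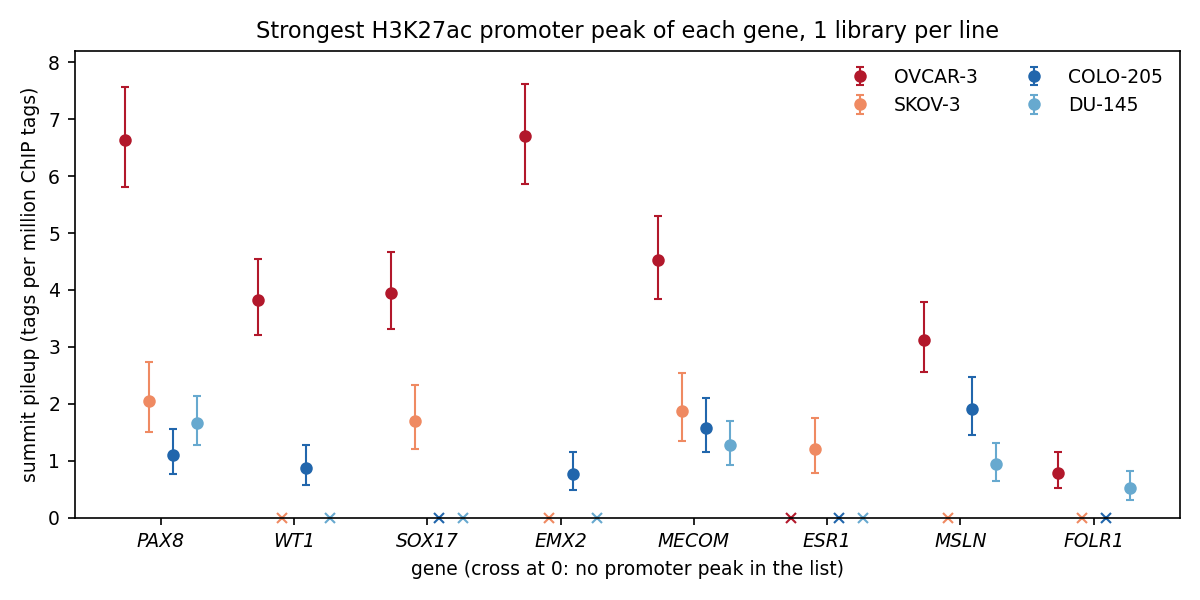
Summit pileup in RPM (tags per 1000000 ChIP tags) of the strongest promoter peak (vertical axis) for each gene (horizontal axis) in 4 lines, with exact Poisson 95% intervals as bars and a cross at 0 where the list has no promoter peak. OVCAR-3 is highest for 7 of 8 genes, from 0.789 at FOLR1 to 6.70 at EMX2 (5 genes relative to the common peaks, without MSLN and FOLR1), and ESR1 has a point in SKOV-3 only.

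PAX8 (ENSG00000125618, chr2:113973574-114036498, minus strand) had a promoter peak in all 4 lines, as did 25.2% of protein-coding genes. In OVCAR-3 the peak over the canonical start was 4453 bp wide, with a fold enrichment of 31.3, a −log10 q of 256 and a pileup of 227 tags. This is 6.64 RPM (5.80 to 7.56), and its −log10 q stood at percentile 99.0 among the 12186 genes with a promoter peak in OVCAR-3. The strongest PAX8 promoter peak reached 2.05 RPM (1.50 to 2.74) in SKOV-3, 1.67 (1.27 to 2.15) in DU-145 and 1.11 (0.762 to 1.56) in COLO-205. OVCAR-3 was thus highest, and its interval overlapped none of the others. The OVCAR-3 pileup was 3.23 times that of SKOV-3 (2.35 to 4.54), or 1.70 times relative to the common peaks. It was 5.99 times that of COLO-205 (4.15 to 8.92), or 2.94 times relative to the common peaks.

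The lines were marked at different PAX8 starts. Of 4 separate start windows, the canonical one was marked in OVCAR-3, SKOV-3 and COLO-205 and had no peak in DU-145. The only DU-145 promoter peak, 1070 bp wide with a −log10 q of 22.3, lay 37310 bp inside the gene at the start of the transcript PAX8-211. OVCAR-3 and SKOV-3 had peaks at that start too, with 1.84 and 1.92 RPM beside the 1.67 of DU-145. Relative to the common peaks these were 0.573, 1.13 and 0.811 times their median. A start of the uncharacterised transcript RP11-65I12.1 lies in the same window, so these peaks cannot be assigned to PAX8 alone. The window further into the gene, which PAX8 shares with its antisense RNA PAX8-AS1, was marked in OVCAR-3 and COLO-205, and the window nearest the 3′ end in OVCAR-3 only.

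The PAX8 locus stood out most in its distal peaks. OVCAR-3 had 58 of them in a window of 162.925 kb, or 35.6 per 100 kb, where COLO-205 had 5, DU-145 4 and SKOV-3 3. Among the 14001 strongest peaks of each library, the counts were 7 in OVCAR-3, 3 in SKOV-3, 2 in COLO-205 and 1 in DU-145, so OVCAR-3 stayed highest by a smaller gap. In the full lists, 1.31% of protein-coding genes had as high a density in OVCAR-3. With the 7 promoter peaks and 12 peaks at starts of other genes, 77 OVCAR-3 peaks covered 27.5% of the window, against 2.84% to 3.40% in the other 3 lines. Of the 58 distal peaks, 25 were intronic, 16 upstream, 9 downstream and 8 exonic, and 53 had no counterpart in another line, as did 72.5% of all distal OVCAR-3 peaks. Chromosome 2 as a whole held fewer OVCAR-3 peaks per Mb than the median chromosome, 12.7 against 24.4. In the 1 Mb around PAX8 lay 105 OVCAR-3 peaks, 21 COLO-205 peaks, 13 SKOV-3 peaks and 12 DU-145 peaks. The part of this regional density in the counts was not tested.

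A few PAX8 elements were present in several lines. The strongest distal peak in OVCAR-3, chr2:114040350-114042494, lay 4573 bp upstream of the canonical start with a fold of 20.9 and 4.71 RPM, and is the upstream element printed above. It overlapped peaks in all of the other lines, with 1.07 RPM in SKOV-3, 1.21 in COLO-205, and 1.22 and 1.19 at separate peaks in DU-145. The next strongest, chr2:113958602-113960701, lay 76481 bp downstream of the canonical start, past the 3′ end of the gene. It reached 4.24 RPM in OVCAR-3, 1.29 in SKOV-3 and 0.772 in COLO-205, and had no counterpart in DU-145. Both elements were above the median OVCAR-3 promoter, which was 2.46 RPM over genes with a promoter peak.

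**Figure D2:**
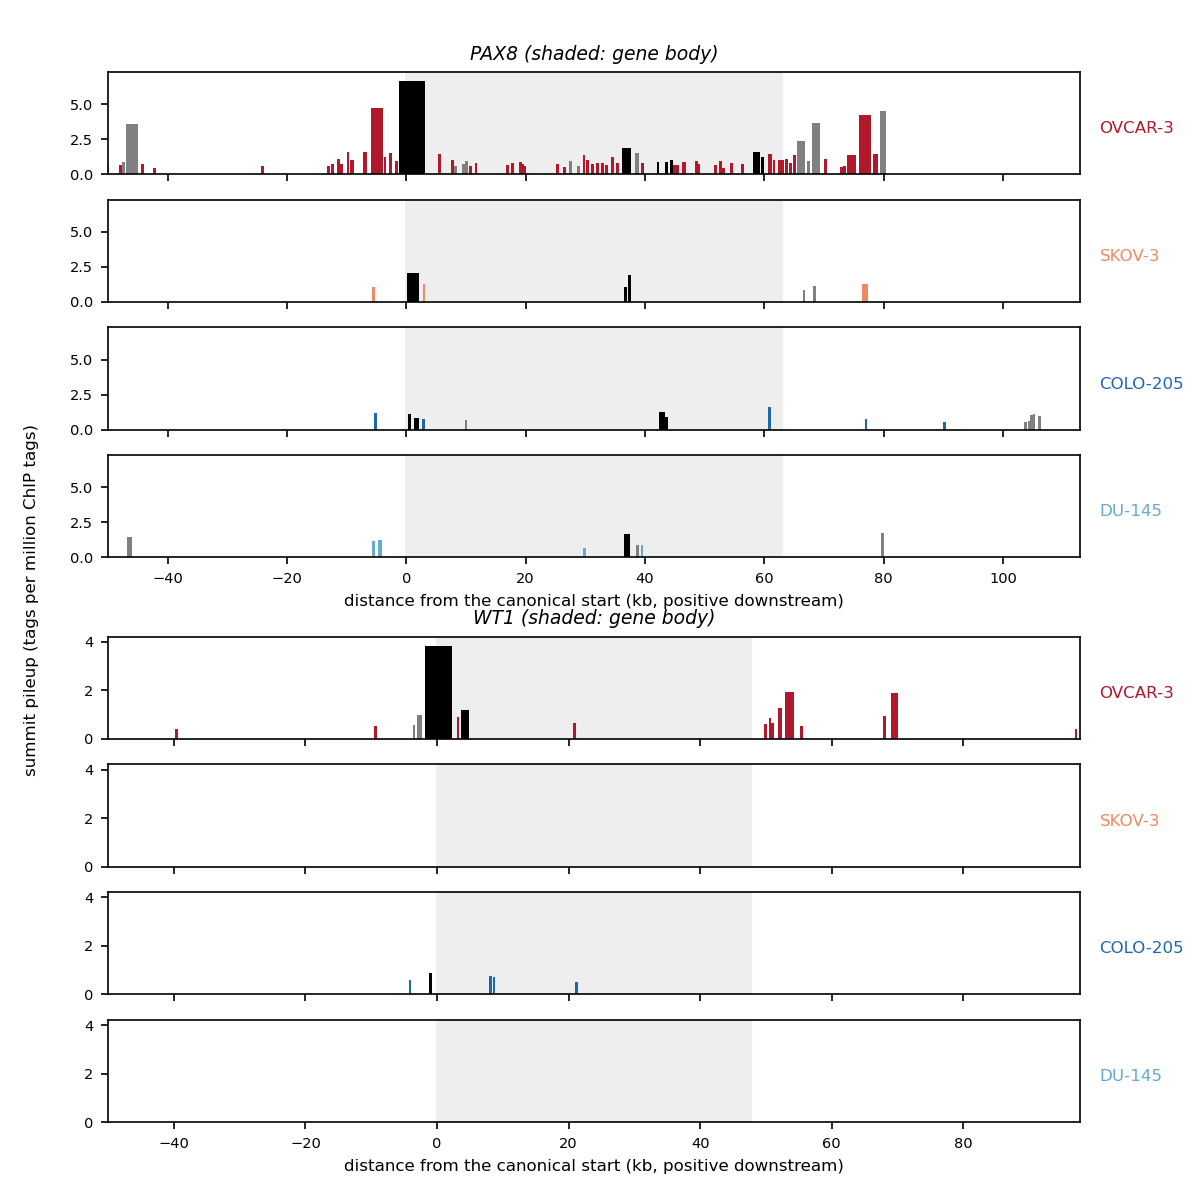
Peaks around PAX8 and WT1 by distance from the canonical start in kb (horizontal axis, positive into the gene, gene body shaded), with summit pileup in RPM (vertical axis) and 1 row per line. Promoter peaks are black, peaks at starts of other genes grey and distal peaks coloured, and OVCAR-3 has 58 distal peaks at PAX8 where the other lines have 3 to 5. Narrow peaks are drawn at a minimum width so that they can be seen.

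SOX17 (ENSG00000164736, chr8:55370495-55373452, plus strand) has a single annotated transcript. Its promoter peak was 2538 bp wide in OVCAR-3, with a fold of 17.0, a −log10 q of 117 and 135 tags, or 3.95 RPM (3.31 to 4.67). In SKOV-3 it was 1063 bp wide, with a fold of 6.93, a −log10 q of 18.5 and 38 tags, or 1.70 RPM (1.20 to 2.33). COLO-205 and DU-145 had no promoter peak. The summits of the ovarian lines lay 231 bp and 271 bp downstream of the start, and the OVCAR-3 pileup was 2.33 times that of SKOV-3 (1.61 to 3.43), or 1.23 times relative to the common peaks.

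Distal peaks near SOX17 numbered 15 in OVCAR-3, 6 in DU-145, 2 in SKOV-3 and 1 in COLO-205. Among the 14001 strongest peaks of each library, OVCAR-3 had 3, SKOV-3 2 and the other lines 0. In the 1 Mb around the gene lay 113 OVCAR-3 peaks, 66 DU-145 peaks, 15 COLO-205 peaks and 8 SKOV-3 peaks, and the part of this regional density in the counts was not tested. The strongest in OVCAR-3 was 2624 bp wide and lay 3301 bp upstream of the start with 3.48 RPM, and overlapped the single COLO-205 peak of 0.906 RPM. Of the DU-145 peaks, 5 lay downstream of the gene, and SKOV-3 shared 1 of those regions. OVCAR-3 shared other downstream regions with DU-145, such as the peak 19319 bp from the start with 1.20 RPM. A weaker DU-145 peak there reached 0.472.

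WT1 (ENSG00000184937, chr11:32409321-32457110, minus strand) had promoter peaks in OVCAR-3 and COLO-205, a pattern of 2.78% of protein-coding genes. In OVCAR-3 the peak over the canonical start was 4242 bp wide, with a fold of 20.0, a −log10 q of 124 and 131 tags, or 3.83 RPM (3.20 to 4.55). It also reaches the start window of the antisense gene WT1-AS and cannot be assigned to WT1 alone. A further OVCAR-3 peak of 41 tags covered an internal start. The COLO-205 peak was 288 bp wide with 26 tags, or 0.872 RPM (0.570 to 1.28), and its summit lay 918 bp upstream of the nearest WT1 start, likewise within the WT1-AS start window. It was no longer a promoter peak of WT1 with a window of 500 bp. The OVCAR-3 pileup was 4.39 times that of COLO-205 (2.87 to 6.97), or 2.15 times relative to the common peaks.

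OVCAR-3 had 13 distal peaks near WT1, and 0 of them had a counterpart in another line, where 72.5% of all its distal peaks lacked one. Of these, 9 lay downstream of the gene, led by chr11:32387066-32387997 with 1.90 RPM and chr11:32402749-32404107 with 1.93. COLO-205 had 4 distal peaks of 0.503 to 0.772 RPM, none shared with OVCAR-3. In the 1 Mb around WT1 lay 60 OVCAR-3 peaks, 19 COLO-205 peaks, 5 DU-145 peaks and 3 SKOV-3 peaks. Chromosome 11 held 1.54 times the OVCAR-3 peak density of the median chromosome. The part of this in the counts was not tested. DU-145 and SKOV-3 had no peak of any kind in the 147.79 kb around WT1. At the level of OVCAR-3, the WT1 promoter would have given 85.8 tags in SKOV-3, or 45.3 after scaling by the common peaks, where the lowest pileup listed was 11.

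EMX2 (ENSG00000170370, chr10:119301956-119309057, plus strand) carried the widest and strongest promoter peak of the group. In OVCAR-3 it spanned 7187 bp and the whole of the start window, with a fold of 34.9, a −log10 q of 270 and 229 tags, or 6.70 RPM (5.86 to 7.62). Its width stood at percentile 99.9 and its −log10 q at percentile 99.2 among genes with a promoter peak in OVCAR-3. COLO-205 had 2 small promoter peaks under the same span, the stronger with 23 tags, or 0.772 RPM (0.489 to 1.16). The ratio of 8.68 (5.64 to 14.0) was the highest of the 12 ratios computed, also relative to the common peaks, where it was 4.25. The OVCAR-3 peak and the COLO-205 peak at chr10:119304660-119305223 also reach the start window of the antisense RNA EMX2OS, so that gene could share them. SKOV-3 had no peak within 50 kb of EMX2, where the OVCAR-3 level would have given 150 tags, or 79.1 after scaling by the common peaks. DU-145 had no promoter peak there and 3 weak distal peaks of 0.444 to 0.583 RPM.

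At EMX2 the full lists held more distal peaks in COLO-205, 9 against 8 in OVCAR-3, although those of OVCAR-3 covered 6263 bp and those of COLO-205 2900 bp. Some of the COLO-205 distal peaks, such as chr10:119305975-119306430, lay under the wide OVCAR-3 promoter peak. The counts therefore depend on how peaks were split and classed. The strongest distal peak in OVCAR-3, chr10:119310667-119314152, began just downstream of the gene with 2.89 RPM and overlapped a COLO-205 peak of 0.772. The order depended on the threshold, with 2 in COLO-205 and 3 in OVCAR-3 at a −log10 q of at least 10, and 0 and 3 among the 14001 strongest peaks of each library. MSLN also had more distal peaks in COLO-205, 5 against 3, which turned to 1 against 2 at a −log10 q of at least 10 and was 1 against 0 among the strongest 14001. Here the COLO-205 peak chr16:809159-809729 counted as distal. The overlapping OVCAR-3 peak chr16:809138-809740 reached the start window and counted as a promoter peak.

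MECOM (ENSG00000085276, chr3:168801287-169381563, minus strand) had promoter peaks in all 4 lines, and 2 of its 7 start windows were marked. At the upstream starts, which give the long MDS1-EVI1 form, OVCAR-3 had a 1993-bp peak with a fold of 13.1, a −log10 q of 115 and 155 tags, or 4.53 RPM (3.85 to 5.30). COLO-205 reached 1.41 RPM at these starts and DU-145 1.28 (0.935 to 1.70). SKOV-3 had none by the rule, but its peak chr3:169380077-169380385, with 1.52 RPM, overlapped the OVCAR-3 and COLO-205 promoter peaks and ended just short of the window. That SKOV-3 peak was counted as distal. With windows of 2500 bp the count of genes marked in SKOV-3 was also 4. MECOM could not change this count, because it was already marked at its internal starts.

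At the internal MECOM starts, 517307 bp into the gene by the OVCAR-3 summit, all 4 lines had a peak. The stronger pileups were 1.73 RPM in OVCAR-3 (1.31 to 2.23), 1.88 in SKOV-3 (1.35 to 2.53), 1.58 in COLO-205 and 0.889 in DU-145 (0.608 to 1.25). Relative to the median of the common peaks these were 0.536 in OVCAR-3, 1.11 in SKOV-3, 1.00 in COLO-205 and 0.432 in DU-145, so OVCAR-3 was not the highest line here on either scale. The strongest promoter peak of OVCAR-3, at the upstream starts, was 2.42 times that of SKOV-3, at the internal starts (1.71 to 3.49), or 1.27 times relative to the common peaks, so this ratio compares different starts.

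OVCAR-3 had 39 distal peaks over the 680.277 kb of the MECOM window, 32 of them intronic, SKOV-3 had 13, COLO-205 6 and DU-145 0. Among the 14001 strongest peaks of each library the order turned, with 1 in OVCAR-3 against the 13 of SKOV-3. Of the 13 in SKOV-3, 9 lay downstream of the gene, and 7 had no counterpart in another line. A shared element upstream of the gene, chr3:169385981-169386607, had 2.05 RPM in OVCAR-3 and 1.38 in SKOV-3, which relative to the common peaks was 0.636 and 0.816 times their median. Peak density on the chromosome moved with this result in OVCAR-3, where chromosome 3 held 53.3 peaks per Mb, 2.19 times the median chromosome, and its part in the MECOM counts was not tested. In SKOV-3 chromosome 3 was below the median chromosome, 3.20 against 4.89 peaks per Mb, but 59 SKOV-3 peaks lay in the 1 Mb around MECOM.

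**Figure D3:**
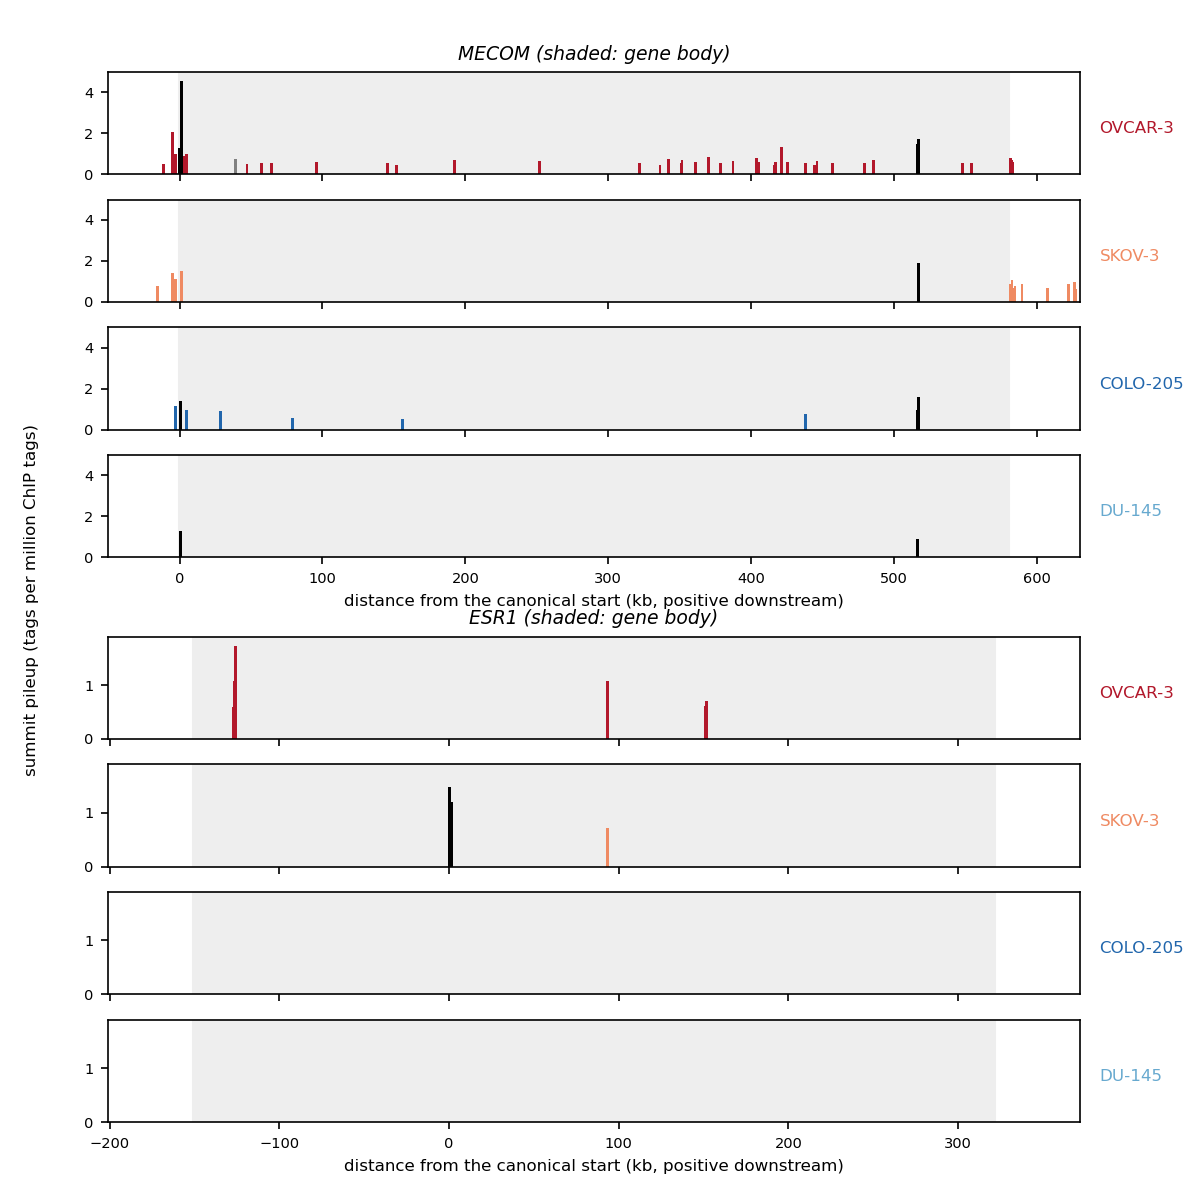
Peaks around MECOM and ESR1 by distance from the canonical start in kb (horizontal axis, gene body shaded), with summit pileup in RPM (vertical axis) and 1 row per line, colours as for PAX8 and WT1. OVCAR-3 has 39 distal peaks at MECOM and 6 at ESR1, while the only ESR1 promoter peaks, in black, are in SKOV-3. Narrow peaks are drawn at a minimum width so that they can be seen.

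ESR1 (ENSG00000091831, chr6:151977826-152450754, plus strand) had promoter H3K27ac only in SKOV-3, in 1 of its 7 start windows. The peak over the canonical start was 1354 bp wide with a fold of 6.16, a −log10 q of 14.5 and 33 tags, or 1.47 RPM (1.01 to 2.07). A second peak of 594 bp nearby had a fold of 7.37, a −log10 q of 14.6 and 27 tags, or 1.21 RPM (0.794 to 1.75). These were ordinary promoter peaks for the line, with the −log10 q of the stronger at percentile 53.1. At the level of 1.21 RPM OVCAR-3 would have had 41.2 tags, above the 12 of its lowest listed peak. COLO-205 and DU-145 had no peak of any kind in the 572.929 kb around ESR1.

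In OVCAR-3 the marked part of ESR1 was intronic. All 6 distal peaks lay in introns, and the strongest, chr6:152002444-152003119, had a fold of 13.0 and 1.73 RPM, 125895 bp upstream of the canonical start and inside the transcripts that begin further upstream. The element at chr6:152221815-152222445, 93405 bp downstream of the canonical start, had 1.08 RPM and overlapped the only distal SKOV-3 peak at ESR1, which had 0.714. Relative to the common peaks the order turned, at 0.336 and 0.421 times their median. This is the intron element with 2 half-sites printed above. It was not listed in COLO-205 or DU-145.

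MSLN (ENSG00000102854, chr16:810734-818865, plus strand) had promoter peaks in OVCAR-3, COLO-205 and DU-145, as did 13.0% of genes, and none in SKOV-3. OVCAR-3 had a 3839-bp peak with a fold of 11.4, a −log10 q of 74.3 and 107 tags, or 3.13 RPM (2.56 to 3.78). COLO-205 had 57 tags at its strongest promoter peak, or 1.91 RPM (1.45 to 2.48), with a −log10 q at percentile 84.7 in that library. DU-145 had 34 tags, or 0.944 RPM (0.654 to 1.32). The order of OVCAR-3 and COLO-205 was not stable, since the ratio of 1.64 (1.18 to 2.30) became 0.802 relative to the common peaks. The only distal peak of SKOV-3 near MSLN, 46943 bp downstream of the start with 1.61 RPM, overlapped a peak in each of the other lines and lies among other genes of a dense region.

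FOLR1 (ENSG00000110195, chr11:71900602-71907367, plus strand) was weakly marked. OVCAR-3 had 4 promoter peaks of 199 to 370 bp, and the strongest had a fold of 7.11, a −log10 q of 15.2 and 27 tags, or 0.789 RPM (0.520 to 1.15). That stood at percentile 17.3 among genes with a promoter peak in OVCAR-3. DU-145 had 1 promoter peak of 19 tags, or 0.528 RPM (0.318 to 0.824), at percentile 1.48. The intervals overlapped, the ratio was 1.50 (0.801 to 2.85), and it was 0.956 relative to the common peaks, so no difference between OVCAR-3 and DU-145 was detectable at this depth. COLO-205 and SKOV-3 had no FOLR1 promoter peak, and in SKOV-3 the OVCAR-3 level would have given 17.7 tags, or 9.33 after scaling by the common peaks, below the lowest pileup of 11. A loss of the mark in SKOV-3 can therefore not be told apart from a lack of depth at FOLR1. Distal peaks near FOLR1 numbered 10 in OVCAR-3, or 9.37 per 100 kb, a density reached by 8.25% of genes, against 3 in DU-145 and 0 in COLO-205 and SKOV-3. All 10 were weak, at 0.439 to 0.819 RPM, and 0 of them were among the 14001 strongest peaks of OVCAR-3. Peaks were also dense around the gene, with 98 OVCAR-3 peaks in 1 Mb and 1.54 times the median chromosome on chromosome 11, and the part of this in the counts was not tested.

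Around the 8 genes together, OVCAR-3 had 152 distal peaks, COLO-205 30, SKOV-3 20 and DU-145 17. In OVCAR-3 all 8 genes had at least 1, where 56.8% of protein-coding genes did, and in SKOV-3 5 genes did, where 19.8% did. COLO-205 had a distal peak at 6 genes, against 71.9%, and DU-145 at 5, against 61.4%. Per 100 kb of window, the density was 7.64 in OVCAR-3 against 2.77 over all protein-coding genes, and 1.01 in SKOV-3 against 0.304. In COLO-205 it was 1.51 against 3.02 and in DU-145 0.855 against 2.94. These totals lean on the long windows of MECOM and ESR1. Without these genes the density was 14.5 in OVCAR-3, 0.816 in SKOV-3, 3.26 in COLO-205 and 2.31 in DU-145. COLO-205 was then near the 3.02 of all protein-coding genes, which still include long genes. Gene by gene, 8 of the genes were above the median gene of the line in OVCAR-3, 4 in COLO-205 and 4 in DU-145. In SKOV-3 the median gene had 0 distal peaks per 100 kb. The 5 genes above it are therefore the 5 with any distal peak, which 19.8% of all genes had. PAX8 held 58 of the OVCAR-3 peaks, and without it the density was 5.15 per 100 kb in OVCAR-3 and 0.931 in SKOV-3. For 6 of the 8 genes OVCAR-3 had more distal peaks than any other line, as it did for 19.3% of all genes. It had more for all 8 genes at a −log10 q of at least 10, against 23.3%, and for 4 with equal peak numbers, PAX8, WT1, SOX17 and EMX2, against 7.71%.

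The excess of OVCAR-3 over SKOV-3 in the total was not seen with lists of equal length. With the 14001 strongest peaks of every library, OVCAR-3 had 18 distal peaks near these genes and SKOV-3 20, while COLO-205 had 5 and DU-145 2. The densities were then 0.905 per 100 kb in OVCAR-3 against 0.274 over all protein-coding genes, and 1.01 in SKOV-3 against 0.304. MECOM supplied 13 of the 20 in SKOV-3 and 1 of the 18 in OVCAR-3, and without it OVCAR-3 had 17 and SKOV-3 7.

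**Figure D4:**
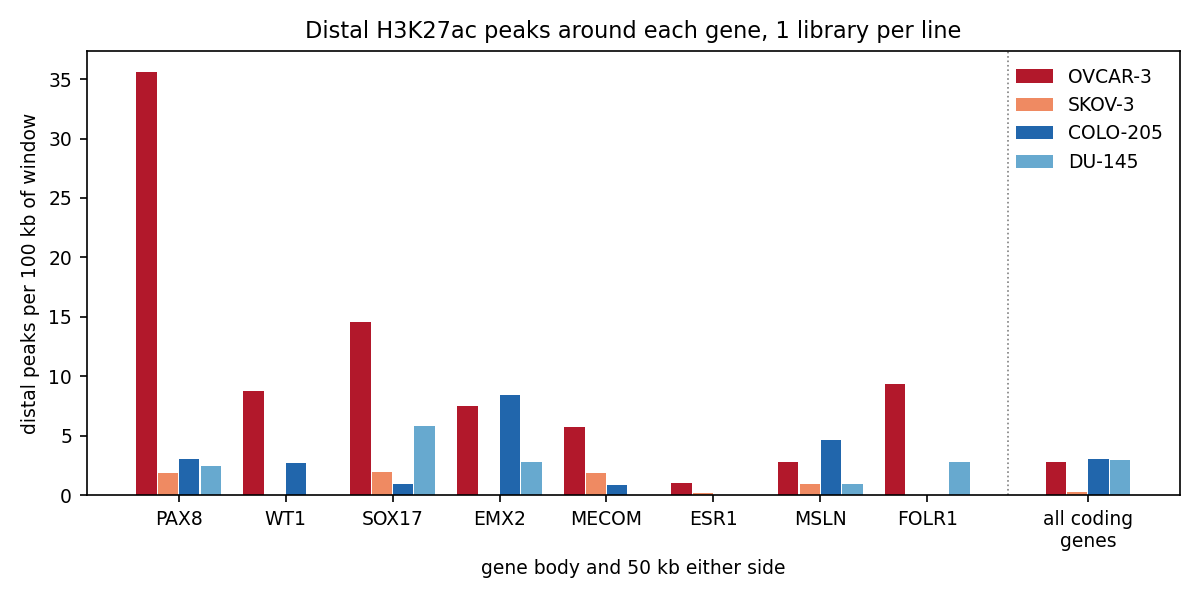
Distal peaks per 100 kb of window (vertical axis, from 0) around each gene and over all protein-coding genes (horizontal axis), 1 bar per line and 1 library per line. The OVCAR-3 bar at PAX8 is 35.6 and the next, at SOX17, 14.6, while the bars over all protein-coding genes are 2.77 for OVCAR-3 and 0.304 for SKOV-3.

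Of the 152 distal peaks in OVCAR-3, 130 (85.5%) had no counterpart in any other line, where 72.5% of all distal OVCAR-3 peaks had none. The share was 14 of 30 (46.7%) in COLO-205 against 84.9%, 5 of 17 (29.4%) in DU-145 against 75.4%, and 7 of 20 (35.0%) in SKOV-3 against 35.9%. Of the OVCAR-3 peaks, 9 (5.92%) overlapped a SKOV-3 peak, 11 (7.24%) a COLO-205 peak and 9 (5.92%) a DU-145 peak, against 3.75%, 11.2% and 18.1% of all distal OVCAR-3 peaks. Seen from SKOV-3, 12 of 20 (60.0%) overlapped an OVCAR-3 peak, 6 (30.0%) a COLO-205 peak and 3 (15.0%) a DU-145 peak, against 40.0%, 24.4% and 39.9%. COLO-205 shared 16 of its 30 (53.3%) with OVCAR-3 and DU-145 11 of its 17 (64.7%), against 9.62% and 17.5% of their distal peaks at large. With SKOV-3, COLO-205 shared 5 (16.7%) and DU-145 3 (17.6%), against 2.04% and 3.64%. The overlapped peak could be of any kind in the other line, promoter peaks included. These shares rest on few peaks, and no test of the differences was made.

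Wider gene lists were counted in the same way. Of 20 other regulators of Müllerian and urogenital development, 9 had a promoter peak in OVCAR-3, 7 in SKOV-3, 10 in DU-145 and 14 in COLO-205, where 60.7%, 31.7%, 60.0% and 51.3% of all genes did. FOXL2, a forkhead factor of the ovary, had the pattern of WT1 and EMX2, with 2.87 RPM in OVCAR-3 and 1.01 in COLO-205. MEIS2 and NR2F2 were marked in all 4 lines. Of 23 further antigens of ovarian carcinoma, 21 were marked in OVCAR-3, 12 in COLO-205, 12 in DU-145 and 5 in SKOV-3, against those same shares of all genes. SLC34A2, a sodium phosphate transporter used as an ovarian target, followed the pattern of MSLN, with 5.56 RPM in OVCAR-3, 0.772 in COLO-205 and 0.833 in DU-145 and no peak in SKOV-3. CLDN6, a tight junction claudin, was marked in all lines, with 5.18 RPM in OVCAR-3 and 4.33 in SKOV-3, an order that turned relative to the common peaks, at 1.61 and 2.55 times their median. SPINT2, a protease inhibitor, reached 9.15 in OVCAR-3 and 2.50 in SKOV-3.

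Of 16 genes of the estrogen receptor pathway, promoter peaks were found at 15 in DU-145, 12 in COLO-205, 11 in OVCAR-3 and 7 in SKOV-3, where the shares of all genes were 60.0%, 51.3%, 60.7% and 31.7%. ESR1 itself was marked in SKOV-3 only. XBP1, NRIP1 and CCND1, all known estrogen targets, were marked in all 4 lines. PGR, GREB1 and TFF1 were marked in COLO-205 and DU-145 but in neither ovarian line, at 0.639 to 1.03 RPM. Other genes of the list went the other way. ESR2 was marked in both ovarian lines and DU-145 but not in COLO-205, with 3.13 RPM in OVCAR-3 and 1.34 in SKOV-3. PDZK1 was marked in OVCAR-3 and DU-145.

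Markers of other cell types were counted as a check of the labels, beside the shares of all genes of 60.7% in OVCAR-3, 31.7% in SKOV-3, 51.3% in COLO-205 and 60.0% in DU-145. Mesothelial markers, which share MSLN and WT1 expression with ovarian carcinoma, were marked at 1 of 8 genes in OVCAR-3 (UPK3B), 1 in SKOV-3 (THBD), 3 in COLO-205 and 4 in DU-145. Colon markers were marked at 6 of 10 genes in COLO-205, 2 in OVCAR-3, 2 in DU-145 and 1 in SKOV-3, with CDX2 marked in COLO-205 alone, so the count in COLO-205 was near its share of all genes and those of the other lines below theirs. Prostate markers were marked at 5 of 10 genes in OVCAR-3, 4 in COLO-205, 4 in DU-145 and 1 in SKOV-3. They therefore did not set DU-145 apart. Leukocyte genes were marked at 0 of 8 in every line but DU-145, where CD14 was marked, and housekeeping genes at 8 to 10 of 10.

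**Figure D5:**
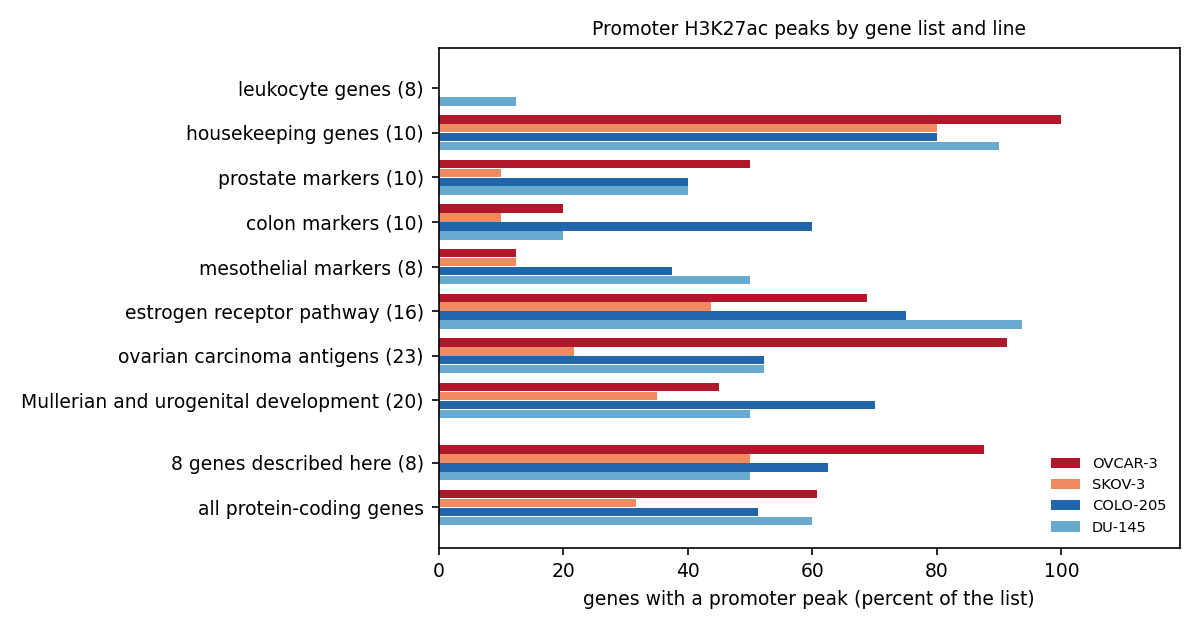
Percent of each gene list with a promoter peak (horizontal axis, from 0), by list with its number of genes (vertical axis) and by line, with all protein-coding genes at the bottom. The bars of ovarian carcinoma antigens are longest in OVCAR-3, at 21 of 23 genes, and shortest in SKOV-3, at 5.

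The genes most alike in promoter marking were taken as those with the smallest distance over the 4 lines in log2(1 + RPM). For WT1 these were TSC2 and MYO7A, with 3.92 and 3.77 RPM in OVCAR-3, 0.839 and 0.940 in COLO-205 and no peak elsewhere. For SOX17 they were TIMM8A and ARL14EP, and for ESR1 CAVIN2 and HOXD9, with 1.25 and 1.16 RPM in SKOV-3 only. PAX8 was nearest to URI1 and ACOT7, EMX2 to DISP3 and BOC, MSLN to LGALS3BP and RPL10, and FOLR1 to FABP6 and IFIT3. MECOM was nearest to DHFR2 and NSUN3, which have the same values as each other in all 4 lines. With 4 points per gene this likeness is a description only.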

How the data were processed

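H3K27ac ChIP-seq peak lists of 4 cell lines were used. Per the labels and the study's methods, the authors aligned reads to hg19 (Bowtie2 2.1.0) and then called narrow peaks library by library (MACS2 2.1.0.20150603) at a q-value below 0.001. The deposited values of each peak are a score, which is 10 times the −log10 q as a whole number, the fold enrichment over local background, the −log10 p and the −log10 q. They were not scaled between libraries by the authors. The methods state that peaks closer than 350 bp were merged, but the lists hold closer neighbours, so merging was an alternative.

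Summit pileups were solved as the whole number that fits the fold and −log10 p within 0.001, which succeeded for 100% of peaks, and the code was tested on simulated data. RPM divides a pileup by 1000000 tags of the library. Tag totals assume 2700000000 genome positions and the smallest peak width as fragment length. Of each gene, the strongest promoter peak by −log10 q was used. Overlap needed 1 bp. Starts came from GENCODE v44lift37 on GRCh37, the build of the files. The genes and lists were chosen with earlier results of these data known. All 8 genes are named. From each wider list, at most 3 genes with the presence pattern of a described gene are named. They are ordered by −log10 q in OVCAR-3 and then SKOV-3. Besides single counts, PGR, GREB1, TFF1, ESR2, PDZK1 and CDX2 are also named and were chosen after their values were seen. CD24 was not in the annotation used and was left out of the antigens. With 1 library per line no test was made. Alternatives tried were a −log10 q threshold of 5 or 10, equal peak numbers, merging, summits in place of overlap, promoter windows of 500 and 2500 bp, basic transcripts, distal windows of 20 and 100 kb, peaks at starts of other genes, strength by fold, and scaling by common peaks. Software was pysam 0.24.0, samtools 1.23.1, pandas 2.3.3, scipy 1.17.1, numpy 2.4.6 and matplotlib 3.10.9 under Python 3.11.15.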

Additional observations from a re-analysis of the deposited data

How the results depend on the processing

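A −log10 q of at least 5, merging and summits in place of overlap left the promoter and distal counts within 1.5 times their values. Promoter windows of 500 or 2500 bp and basic transcripts did the same for the promoter counts, although WT1 lost its COLO-205 promoter peak at 500 bp. Genes with a distal peak changed there by 1, with MECOM gained in DU-145 at 500 bp and WT1 lost in COLO-205 at 2500 bp. At a −log10 q of at least 10, promoter peaks remained at 3 genes in COLO-205 and 2 in DU-145 (31.8% and 51.3% of all genes), there were 87 distal peaks in OVCAR-3, 8 in SKOV-3, 8 in COLO-205 and 4 in DU-145, genes with a distal peak numbered 3 in DU-145 and 2 in SKOV-3 (39.2% and 9.28%), and 5 genes were marked in an ovarian line and in neither other line (8.47%). With equal peak numbers, promoter peaks remained at 2 genes in COLO-205 and 1 in DU-145 (21.9% and 37.9%), there were 18 distal peaks in OVCAR-3, 5 in COLO-205 and 2 in DU-145, genes with a distal peak numbered 3 in COLO-205 and 2 in DU-145 (14.1% and 17.3%), and 4 genes were marked in an ovarian line and in neither other line (10.4%). By construction, the −log10 q of at least 10 keeps fewer peaks in every list, and equal peak numbers shorten every list but that of SKOV-3. Distal windows of 20 kb gave 11 peaks in DU-145, windows of 100 kb gave 46 in COLO-205 and 28 in DU-145, and adding peaks at starts of other genes gave 26 in DU-145.

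Choosing the strongest peak by fold moved the MECOM ratio of OVCAR-3 to COLO-205 to 4.82 and to DU-145 to 5.10. By fold, the OVCAR-3 peak lay at the upstream starts and those of COLO-205 and DU-145 at the internal starts. Relative to the common peaks, all 12 ratios moved. Those to COLO-205 were 2.94 for PAX8, 2.15 for WT1, 4.25 for EMX2, 1.41 for MECOM and, reversed, 0.802 for MSLN. Those to DU-145 were 2.55 for PAX8, 2.27 for MECOM, 2.12 for MSLN and, reversed, 0.956 for FOLR1. Those to SKOV-3 were 1.70 for PAX8, 1.23 for SOX17 and 1.27 for MECOM. Whether the higher OVCAR-3 pileup at common peaks is signal or yield was not tested. No paired analysis was possible because each line has 1 library and no result comes from a test. SKOV-3, with the fewest tags and peaks, limits statements on absent peaks most.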
